A study of Mus musculus with 16 samples.

Results

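The genes described here move salt and water across the lung epithelium. They were chosen by name, as 9 genes of lung liquid secretion and clearance: Scnn1a, Scnn1b, Scnn1g, Atp1b1, Cftr, Aqp1, Slc4a2, Slc12a2 and Clns1a. On the array, 11 of 12488 probe sets were annotated to exactly 1 of these symbols, and they covered 6 of the 9 genes. The 3 subunit genes of the epithelial sodium channel, Scnn1a, Scnn1b and Scnn1g, had no probe set under their symbols in the annotation used and were not analysed here.

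Whole lungs of T1α(-/-) mice, which lack T1α (Pdpn), an apical membrane glycoprotein of alveolar type I cells, were compared with T1α(+/+) lungs from crosses of T1α(+/-) mice. The E18.5 groups held 5 arrays per genotype and the term groups held 3, with pups taken within minutes of normal delivery, and each array carried the RNA of 1 lung, so replicates were separate animals. The null allele was carried in all cells and not in the lung alone, and no treatment is named for any of the 4 groups. The (+/+) replicates were I to M at E18.5 and N to P at term, and the (-/-) replicates were A to E at E18.5 and F to H at term.

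Values were signals of Affymetrix Murine Genome U74Av2 arrays, a brightness per probe set computed from short oligonucleotide probes, and every array had been scaled to a trimmed mean of 100.04 to 100.06. The T1α transcript checked the labels, since at each time all (-/-) arrays read below all (+/+) arrays. Its signal was 109 ± 29.2 (SD, n = 5) in (+/+) and 13.5 ± 8.34 (n = 5) in (-/-) lungs at E18.5. The corresponding term values were 114 ± 90.4 (n = 3) and 15.9 ± 12.2 (n = 3). Sftpc, the surfactant protein of type II cells, and Scgb1a1, the secretory protein of club cells, were bright in all 4 groups, with lowest signals of 5027.3 and 868.5. The (+/+) E18.5 replicate I stood apart, with a median signal of 61 against 35.8 to 47.6 on the other arrays.

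Before birth the lung epithelium secretes liquid. Slc12a2 (NKCC1), the basolateral sodium, potassium and chloride cotransporter, and Slc4a2 (AE2), a chloride and bicarbonate exchanger, bring chloride into the cell, and chloride leaves through apical channels such as Cftr. Around birth the epithelium turns to absorption: sodium enters through the apical epithelial sodium channel and is pumped out by the basolateral sodium pump, of which Atp1b1 is a beta subunit, and water follows, in part through aquaporins. Aqp1 is the water channel of lung capillary endothelium and red blood cells, and Clns1a (Icln) is a cytosolic protein linked to chloride currents of swollen cells and to spliceosome assembly.

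The promoters of 2 members are shown because their letters differ: that of Atp1b1, whose signal rose to term in both genotypes, and that of Clns1a, the member with the lowest unadjusted p between genotypes at E18.5. No window of Slc12a2, whose signal also rose, is given here. Each run is the 250 bases before the RefSeq transcription start in GRCm38.p6, read 5′ to 3′ on the strand of the gene. Capitals mark matches to GGGCGG, the letters of a GC box, or to AGAACA, the letters of a glucocorticoid receptor half-site, or to their reverse complements CCGCCC and TGTTCT.
Atp1b1: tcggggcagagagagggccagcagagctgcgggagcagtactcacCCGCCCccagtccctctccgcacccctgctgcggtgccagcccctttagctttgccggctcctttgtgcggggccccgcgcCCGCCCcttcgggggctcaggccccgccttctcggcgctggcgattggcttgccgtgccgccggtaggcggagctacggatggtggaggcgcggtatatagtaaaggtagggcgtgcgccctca
Clns1a: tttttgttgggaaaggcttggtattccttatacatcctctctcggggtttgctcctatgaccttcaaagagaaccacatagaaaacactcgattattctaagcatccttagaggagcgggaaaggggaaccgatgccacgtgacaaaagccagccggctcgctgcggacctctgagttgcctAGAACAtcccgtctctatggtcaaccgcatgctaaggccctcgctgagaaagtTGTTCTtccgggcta
The Atp1b1 run lies on the minus strand at chr1:164458356-164458605, next to the gene at chr1:164437099-164458355, and the Clns1a run lies on the plus strand at chr7:97696407-97696656, next to the gene at chr7:97696657-97720793. The Atp1b1 window held 2 GC boxes, no half-site and 70.4% G and C. The Clns1a window held no GC box, 2 half-sites and 50.4% G and C. Of 32851 windows of the same length, 32.7% held a GC box and 16.1% a half-site. The window of Cftr held 6 GC boxes in part overlapping, that of Aqp1 held 1, the 2 windows of Slc4a2 held 0, and none of these 4 held a half-site. These matches describe the letters, and factor binding was not measured.

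Of the 11 probe sets, 7 passed the filter on low signals in at least 1 comparison, and they covered all 6 genes. A probe set passed when the median of at least 1 group was above the level reached by 45% of all values on the compared arrays, which lay between 48.7 and 54.3. The other 4 were dim on all 16 arrays or nearly so: the _at probe set of Atp1b1 read 4.0 to 39.8, the _i_at probe set of Aqp1 4.8 to 100, and the _s_at and _f_at probe sets of Cftr 0.9 to 25.2 and 0.5 to 11.7. Differences were tested with limma on log2(signal + 16), a scale that understates changes of dim probe sets, and p-values were adjusted over all probe sets tested.

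**Figure D1:**
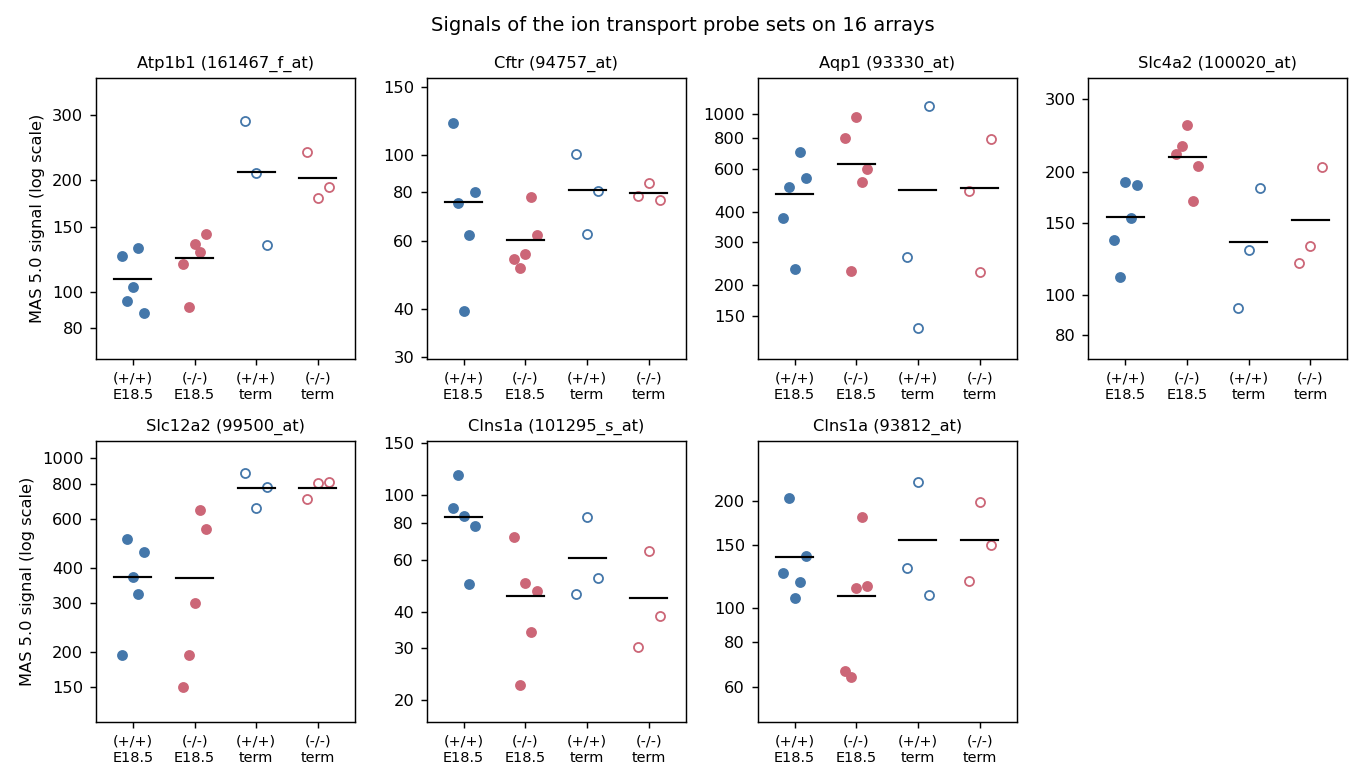
Signal of the 7 probe sets that passed the filter (log axis) in the 4 groups, with 1 point per array and a line at the group mean. Filled points are E18.5 and open points are term, blue is (+/+) and red is (-/-). Slc12a2 at term lay above all E18.5 arrays in both genotypes, and the genotypes overlapped in every panel at each time.

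Between the genotypes, no member differed past an adjusted p of 0.05 at E18.5 or at term. At E18.5, 0 of the 7 probe sets passed, where 0.0343% of all 5825 tested did, and at an unadjusted p under 0.05 there were 1 higher and 1 lower member, where 2.7% of all were higher and 2.61% lower. The arrays of the genotypes overlapped in each of the 7, where 1.13% of all were without overlap. The median change of the 7 in (-/-) lungs was -0.14 on the log2 scale, beside 0.04 over all tested, with a range of -0.73 to 0.46. Clns1a is counted by both of its probe sets, and the one at -0.73 passed the filter only through the (+/+) group. By 1 probe set per gene, that of highest mean, the median of the 6 genes was 0.01. At term 0 of 7 passed with or without adjustment, where 0% and 0.686% of all 5831 did, none was without overlap, where 3.29% of all were, and the median change was 0.02 beside 0.01 over all. With 3 arrays against 3, an exact permutation test cannot go below 0.1.

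The member that was lower in (-/-) lungs at E18.5 by the unadjusted test was Clns1a, by its _s_at probe set. Its signals were 89.9, 117.3, 85.0, 49.7 and 78.3 in (+/+) replicates I to M. They were 71.7, 22.5, 50, 34.2 and 47.0 in (-/-) replicates A to E. The groups overlapped through (+/+) replicate L and (-/-) replicates A and C, and the other (-/-) arrays lay below every (+/+) array. The mean was 46.4% lower, 45.1 ± 18.5 against 84 ± 24.3 (SD, n = 5 each), and the log2 change was -0.73 (95% interval -1.28 to -0.18, limma p = 0.0126, adjusted p = 0.856, exact permutation p = 0.0238). The probe set passed the filter, at 54.3, only through the (+/+) group, where its median was 85 against 47 in (-/-) lungs, so that it had to differ to be tested and its p-values do not support a difference. The same held for it at term and over time in (+/+) lungs. The study listed this gene from the same arrays, so the values are not independent evidence of its direction.

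The other Clns1a probe set, of suffix _at, was brighter and less separated. It read 125.5, 203.9, 106.5, 117.8 and 139.7 in (+/+) lungs at E18.5. It read 66.4, 63.8, 113.8, 179.5 and 115.0 in (-/-) lungs, where A and B lay below every (+/+) array and D above all (+/+) arrays but J. The log2 change was -0.37 (95% interval -0.91 to 0.17, limma adjusted p = 0.881, exact permutation p = 0.19). Both probe sets thus had lower means in (-/-) lungs, and neither passed the adjusted test. At term the log2 changes were -0.35 (-0.98 to 0.28) for the _s_at and 0.04 (-0.62 to 0.71) for the _at probe set. The suffix _s_at marks a probe set whose probes can match several related transcripts.

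The signals of the Clns1a _s_at probe set moved with a measure of RNA integrity, the ratio of the 3′ to the 5′ probe sets of β-actin, which is higher where RNA is degraded or copied incompletely. This ratio was 1.08 to 1.46 in (+/+) and 1.26 to 1.91 in (-/-) lungs at E18.5. Over all 16 arrays Spearman's rho was -0.73 (permutation p = 0.00226, adjusted p = 0.0158 over 14 relations of 7 probe sets with 2 ratios, chosen after the signals were seen) and Pearson's r was -0.48 (permutation p = 0.0589, adjusted p = 0.206), or -0.72 without the 2 arrays of the most extreme ratio. Of all probe sets tested, 7.85% had a Pearson r as low and 17.1% one as large in size, and with the GAPDH ratio r was 0.05 and rho -0.07. Within E18.5 r was -0.74 (n = 10, permutation p = 0.0166) and within term -0.12 (n = 6, exact permutation p = 0.847). With the ratio as a covariate, a fit added after the data were seen, the E18.5 difference of the _s_at probe set was -0.42 (limma adjusted p = 0.756), while that of the _at probe set was -0.76.

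Slc4a2, at chr5:24423761-24440947, was the member with a higher signal in (-/-) lungs at E18.5 by the unadjusted test. Its signals were 136.6, 110.7, 188.2, 154.4 and 186.0 in (+/+) and 220.8, 230.7, 259.4, 169.3 and 205.9 in (-/-) lungs. Of the 5 (-/-) arrays, 4 lay above every (+/+) array, and D lay among them. The means were 155 ± 33 and 217 ± 33.2 (SD, n = 5 each), 1.4-fold apart, and the log2 change was 0.46 (95% interval 0.05 to 0.86, limma p = 0.0306, adjusted p = 0.856, exact permutation p = 0.0317). At term the signals were 93.3, 128.7 and 182.3 in (+/+) and 119.9, 131.6 and 205.2 in (-/-) lungs, with a log2 change of 0.17 (-0.48 to 0.81), and the groups overlapped. The study listed this gene too from the same arrays, so its direction is not independent evidence.

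The differences of the other members between the genotypes did not pass, and their intervals were wide. At E18.5 the log2 change was 0.34 (95% interval -0.41 to 1.08) for Aqp1, 0.16 (-0.23 to 0.56) for Atp1b1, -0.14 (-0.91 to 0.62) for Slc12a2 and -0.22 (-0.73 to 0.29) for Cftr. At term it was 0.37 (-1.12 to 1.86) for Aqp1, -0.00 (-0.65 to 0.65) for Atp1b1, 0.02 (-0.51 to 0.54) for Slc12a2 and -0.00 (-0.49 to 0.49) for Cftr. The change of the genotype effect from E18.5 to term passed in 0 of 7 probe sets, as in 0% of all 6405 tested, and in 0 at an unadjusted p under 0.05, where 1.47% of all did, with a range of -0.29 to 0.41.

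**Figure D2:**
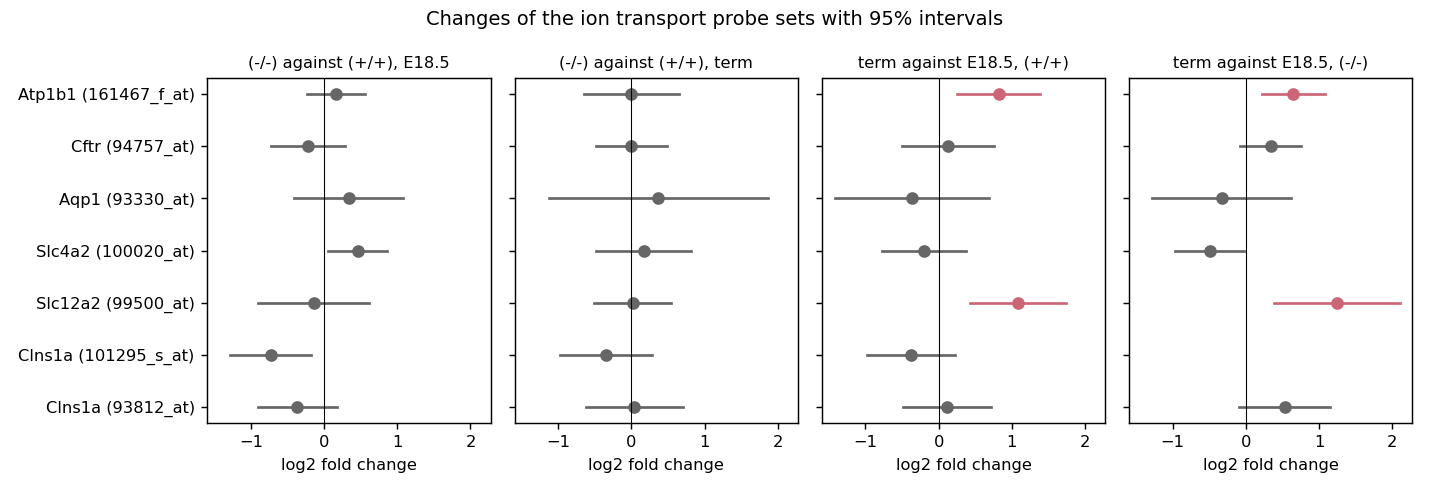
Log2 fold change with its 95% interval from limma for each probe set tested, in 4 comparisons named above the panels. Red marks an adjusted p under 0.05, reached by Atp1b1 and Slc12a2 from E18.5 to term in both genotypes, and the Clns1a _s_at probe set was not tested over time in (-/-) lungs.

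From E18.5 to term, the members that changed were Slc12a2 and Atp1b1, and both rose in both genotypes. In (+/+) lungs 2 of 7 probe sets rose and 0 fell, where 10.7% of all 6097 probe sets tested rose and 8.07% fell. In (-/-) lungs 2 of 6 rose and 0 fell, where 13.8% of all 6145 rose and 13.1% fell. The arrays of the times did not overlap in 2 of the tested member probe sets in each genotype, where this held for 24.5% of all in (+/+) and 30.8% in (-/-) lungs. The median log2 change was 0.11 over the 7 member probe sets in (+/+) and 0.43 over the 6 in (-/-) lungs, beside -0.04 and -0.06 over all tested. These medians are of unlike sets. The Clns1a _s_at probe set, with a log2 change of 0.00 in (-/-) lungs, was below the filter there. The (+/+) and (-/-) time comparisons share no array, but each shares its arrays with the genotype comparisons.

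Slc12a2, on chromosome 18, rose in both genotypes. Its signals in (+/+) lungs were 195.7, 508.5, 373.4, 322.5 and 457.5 at E18.5, against 881.1, 658.6 and 783.5 at term. In (-/-) lungs they were 149.7, 195.3, 300.7, 649.7 and 553.4 at E18.5, against 707.0, 811.9 and 818.0 at term. All term arrays lay above all E18.5 arrays of their genotype, and the E18.5 (-/-) arrays spread most, with A and B low and D and E close to the term level. The mean rose 2.08-fold in (+/+) lungs, from 372 ± 122 (SD, n = 5) to 774 ± 112 (n = 3), and the log2 change was 1.09 (95% interval 0.43 to 1.74, limma adjusted p = 0.0232). It rose 2.11-fold in (-/-) lungs, from 369.8 ± 221 to 779 ± 62.4, and the log2 change was 1.24 (0.39 to 2.10, limma adjusted p = 0.0339). The exact permutation p was 0.0357 in each genotype, the smallest that 3 against 5 arrays allow. The difference of the changes was 0.16 (-0.95 to 1.26), an interval about as wide on each side as the rises themselves.

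Atp1b1, by its brighter _f_at probe set, also rose in both genotypes. Its signals in (+/+) lungs were 125.3, 94.6, 103.4, 131.2 and 87.9 at E18.5, against 289.7, 209.2 and 134.0 at term. In (-/-) lungs they were 119.3, 91.2, 134.9, 128.5 and 143.7 at E18.5, against 237.8, 179.5 and 191.6 at term. Each term array lay above the E18.5 arrays of its genotype, but the (+/+) replicate P did so by a small margin over replicate L, and (+/+) replicate N was the highest of all. The mean rose 1.94-fold, from 108 ± 19 to 211 ± 77.9, in (+/+) lungs, with a log2 change of 0.82 (95% interval 0.25 to 1.39, limma adjusted p = 0.0441). It rose 1.64-fold, from 124 ± 20.1 to 203 ± 30.8, in (-/-) lungs, with a log2 change of 0.65 (0.22 to 1.08, limma adjusted p = 0.0282). The exact permutation p was 0.0357 in each, and the difference of the changes was -0.17 (-0.84 to 0.51).

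The dim Atp1b1 probe set, of suffix _at, went the other way. In (+/+) lungs it read 28.7, 8.6, 22.4, 7.7 and 18.5 at E18.5, against 4.0, 6.0 and 4.3 at term, a mean 72.3% lower (exact permutation p = 0.0357). Its (-/-) signals were 8.6, 6.7, 33.0, 39.8 and 27.8 at E18.5, against 12.8, 7.6 and 6.7 at term, with overlap (exact permutation p = 0.25). It was below the filter in every comparison. The suffix _f_at of the brighter probe set marks probes that can match several members of a sequence family. The means of the 2 probe sets went in opposite directions in both genotypes. In (-/-) lungs the mean of the dim probe set was 61% lower at term, with the overlap given above.

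The part of other measures of the arrays in the rises of Slc12a2 and Atp1b1 was not tested beyond the following fits and correlations. With Xist, a transcript of females, as a covariate neither passed in either genotype. Xist was 14.3 to 80 on the (+/+) arrays at E18.5 and 6.7 to 10.2 at term, and 14.7 to 99.8 and 7.3 to 75.8 on the (-/-) arrays. With the β-actin ratio as a covariate, neither passed in (+/+) lungs. Over 16 arrays Pearson's r with that ratio was 0.57 for Atp1b1 (permutation p = 0.0285) and 0.51 for Slc12a2 (permutation p = 0.0246). The adjusted p of each was 0.133 over the 14 relations. Of all probe sets tested, 5.65% and 12.3% had an r as large in size. Without the 2 arrays of the most extreme ratio r was 0.20 and 0.35. With the GAPDH ratio r was 0.33 and 0.13, in the same order. Of all 6097 probe sets tested in (+/+) lungs, 1142 passed in the main fit, 182 with Xist and 369 with the β-actin ratio. The fitted log2 changes over all alternatives stayed positive, at 0.82 to 1.23 for Slc12a2 and 0.58 to 1.09 for Atp1b1 in (+/+) lungs and at 0.99 to 1.49 and 0.51 to 0.76 in (-/-) lungs. Leaving out (+/+) replicate L or N, or (-/-) replicate F, left 0 member probe sets past the threshold in that genotype. Over all probe sets in (+/+) lungs, 838 passed without L and 335 without N. Sex, batch and litter are not given in the sources used here, so time and batch cannot be told apart.

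Cell type markers also moved over the same time, and in whole-lung RNA fewer cells of a type and less RNA per cell cannot be told apart. The summed signal of 5 type II cell markers was 17009.8 to 30885 at E18.5 and 8168 to 10386 at term in (+/+) lungs, and 20105 to 35129 and 10714 to 11765 in (-/-) lungs. That of 8 red blood cell markers was 18104 to 43108 and 11133 to 12369 in (+/+), and 26315 to 43202 and 10758 to 16292 in (-/-) lungs. Both sums were lower at term without overlap, while those of 3 airway epithelium and 10 endothelium markers were higher at term without overlap, at 1382 to 3821 against 4551 to 5426 and 2559.5 to 4159 against 4275 to 5973 in (+/+) lungs. These sums weigh bright genes most, and the genes of a list did not all move alike. Scgb1a1 changed by 1.33 in (+/+) and 0.77 in (-/-) lungs on the log2 scale, and Cyp2f2, also an airway marker, by -0.77 and -1.01. The type II cell marker Napsa changed by -0.06 and 0.01. Past an adjusted p of 0.05, 2 of 9 endothelium markers rose in (+/+) and 1 of 10 in (-/-) lungs, where 10.7% and 13.8% of all did. The sum of 5 general epithelial markers, at 1545 to 3236 and 1728 to 3550.0 in (+/+) lungs, overlapped. The sum of 4 mesenchyme markers, at 2550.1 to 5085 and 2163 to 2809, and that of 4 type I cell markers with T1α among them, at 6459 to 11671 and 3468 to 6483, were lower at term with overlap in (+/+) lungs. Of the marker genes on the array none had a signal of 0 on any array, and only Sftpd and Epb42 were below the filter in every comparison. Some others, such as Epcam between genotypes at E18.5, were below it in single comparisons. The part of these shifts in the rises of Slc12a2 and Atp1b1 was not tested.

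Cftr, at chr6:18170687-18322770, was near the filter level in all groups. By its _at probe set, the E18.5 signals were 121.1, 75.3, 39.6, 62.2 and 80 in (+/+) and 53.8, 51.1, 55.6, 77.9 and 62.1 in (-/-) lungs. The term signals were 100.2, 62.3 and 80.8 in (+/+) and 78.2, 84.8 and 76.3 in (-/-) lungs. The means were 75.6 ± 29.9 and 60.1 ± 10.7 at E18.5, against 81.1 ± 19 and 79.8 ± 4.46 at term, in this order. The (+/+) E18.5 arrays spanned all others, from K at the bottom to I at the top, and the term (-/-) arrays were the most alike. From E18.5 to term the log2 change was 0.13 (95% interval -0.50 to 0.75) in (+/+) and 0.34 (-0.08 to 0.76, limma adjusted p = 0.205) in (-/-) lungs.

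Slc4a2 was lower at term in (-/-) lungs by the unadjusted test, with a log2 change of -0.49 (95% interval -0.97 to -0.02, limma p = 0.042, adjusted p = 0.109, exact permutation p = 0.0714), where 21.3% of all were lower by that test. In (+/+) lungs the change was -0.20 (-0.77 to 0.37). The difference between them was -0.29 (-1.0 to 0.42). Without (-/-) replicate H, whose term signal of 205.2 lay among those at E18.5, the change in (-/-) lungs was -0.71. H is singled out here by its value, so that fit does not support a fall. Of 21 alternatives, 2 gained a call for Slc4a2 in (-/-) lungs. Clns1a changed by 0.11 (-0.49 to 0.71) in (+/+) and 0.53 (-0.10 to 1.15) in (-/-) lungs by its _at probe set, and by -0.38 (-0.98 to 0.22) in (+/+) lungs by its _s_at probe set.

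Aqp1, at chr6:55336299-55348555, varied more between arrays of a group than any other member probe set that passed the filter at term. The E18.5 signals of its _at probe set were 376.3, 506.1, 233.3, 701.4 and 548.5 in (+/+) and 801.1, 228.5, 977.1, 527.8 and 598.2 in (-/-) lungs. The term signals were 262.4, 133.4 and 1079.3 in (+/+) and 484.8, 226.0 and 796.6 in (-/-) lungs. The means were 473 ± 177 and 627 ± 284 at E18.5, against 492 ± 513 and 502 ± 286 at term, in this order. In each group the lowest array was far below the highest, and at term replicates G and O were low and H and P high whatever the genotype. From E18.5 to term the log2 change was -0.37 (95% interval -1.42 to 0.69) in (+/+) and -0.33 (-1.28 to 0.62) in (-/-) lungs. Without (+/+) replicate P, the (+/+) change was -1.17. P is singled out here by its high value, so that fit does not support a fall. Of 21 alternatives, 1 gained a call for Aqp1 in (+/+) lungs.

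The Aqp1 signal followed the GAPDH 3′ to 5′ ratio of the array. The ratio was 2.55 and 2.63 on O and G, the arrays with low Aqp1 at term, and 0.853 and 0.827 on P and H, the arrays with high Aqp1. Over 16 arrays Pearson's r of log2 values was -0.85 (permutation p = 0.0001, adjusted p = 0.0014 over the 14 relations) and Spearman's rho was -0.75 (permutation p = 0.00108, adjusted p = 0.0151). Without G and O, the arrays farthest from the median ratio, r was -0.78. Within E18.5 r was -0.65 (n = 10, permutation p = 0.055) and within term -0.96 (n = 6, exact permutation p = 0.0111). Of 6405 probe sets tested, 0.0781% had an r as low. With the β-actin ratio r was -0.22 (permutation p = 0.421). With the GAPDH ratio as a covariate the (+/+) change over time was 0.26, opposite in sign to the value without it. The dim Aqp1 probe set, of suffix _i_at, read 49 ± 32.6 at E18.5 and 12.8 ± 10.3 at term in (+/+) lungs (exact permutation p = 0.0714). Its (-/-) signals were 31.7 ± 12.4 and 9.73 ± 2.77 (exact permutation p = 0.0357), and it was below the filter for limma. Between genotypes this dim probe set was lower in (-/-) lungs, by a log2 difference of -0.35 at E18.5 and -0.11 at term. The exact permutation p was 0.365 and 0.8, and the _at probe set went the other way, at 0.34 and 0.37.

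**Figure D3:**
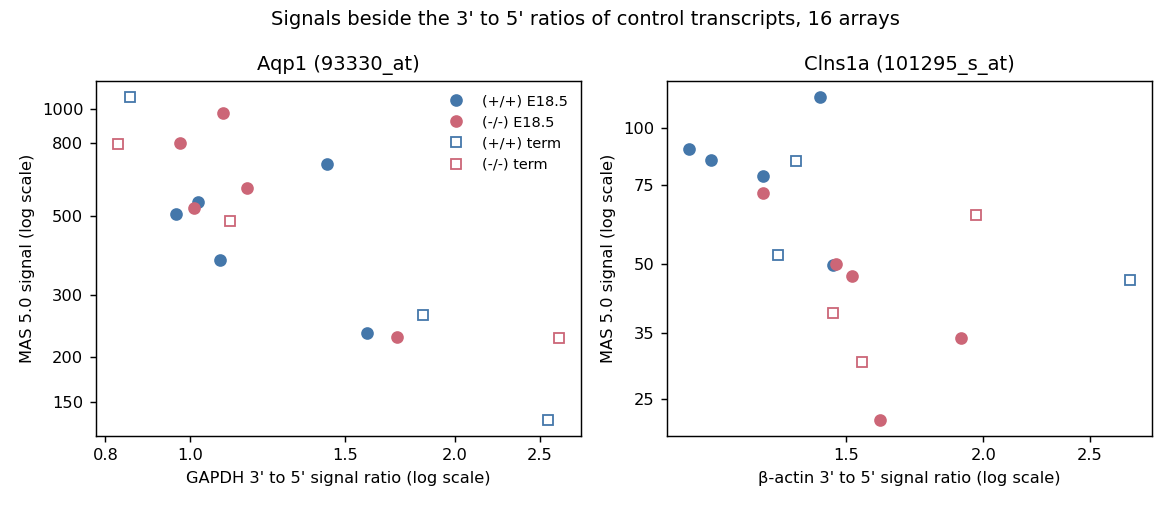
Signal of Aqp1 (_at) against the GAPDH 3′ to 5′ ratio (left) and of Clns1a (_s_at) against the β-actin 3′ to 5′ ratio (right) on 16 arrays, with log axes; circles are E18.5, squares are term, blue is (+/+) and red is (-/-). In each of the 4 groups Aqp1 was lowest on the array with the highest GAPDH ratio, with signals of 133.4 to 233.3.

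The other genes of liquid transport were read from 5 lists of 101 genes: further sodium pump subunits and sodium transporters, regulators of the epithelial sodium channel, further chloride channels and anion carriers, other aquaporins, and epithelial potassium channels. On the array were 59 of them, by the probe set of highest mean, and 26 to 31 were tested in each comparison. Between genotypes 0 passed at either time, where 0.0343% of all probe sets did at E18.5 and 0% at term. By the unadjusted test, 1 of 29 was higher and 1 lower at E18.5, where 2.7% of all were higher and 2.61% lower. At term 0 of 26 were higher and 1 lower, where 0.686% of all passed in either direction. The higher gene at E18.5 was Slc9a3r2, a scaffold of sodium and proton exchangers (log2 change 0.41). The lower gene was Clcn3, a chloride and proton exchanger of endosomes (-0.61), which passed the filter only through the (+/+) group. The lower gene at term was Sgk1, the kinase that keeps the epithelial sodium channel at the cell surface. It read 393 ± 64 in (-/-) and 960.1 ± 573 in (+/+) lungs (n = 3 each, log2 change -1.04, SE 0.46, limma adjusted p = 1).

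From E18.5 to term, 3 of 29 of these genes rose and 2 fell in (+/+) lungs, and 5 of 31 rose and 6 fell in (-/-) lungs, where over all probe sets 10.7% rose and 8.07% fell in (+/+) and 13.8% rose and 13.1% fell in (-/-) lungs. Some of them passed the filter only through the time at which they were high, so that they had to differ to be tested and their calls support nothing: Clca3a1 and Aqp8 in both genotypes, and Clcn3, Kcnn4 and Usp2 in (-/-) lungs. The others were Sgk1, Furin and Prss8 in (+/+) lungs, and Sgk1, Furin, Clic4, Prss8, Clic3 and Slc9a3r2 in (-/-) lungs. The median change was 0.12 and -0.13, beside -0.04 and -0.06 over all tested. Sgk1 had the largest log2 changes of these genes. It rose from 85.3 ± 28.1 to 960.1 ± 573 in (+/+) lungs (log2 change 3.09, SE 0.40, limma adjusted p = 0.000195) and from 86 ± 40.8 to 393 ± 64 in (-/-) lungs (2.08, SE 0.29, adjusted p = 0.000728). The difference of the changes was -1.0 (SE 0.54, limma adjusted p = 1), and the spread of Sgk1 was largest at term in (+/+) lungs.

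Among the regulators of the epithelial sodium channel, 2 of 7 rose and 1 fell in (+/+) lungs, where 10.7% of all rose and 8.07% fell. In (-/-) lungs 2 of 7 rose and 2 fell, where 13.8% of all rose and 13.1% fell. The (-/-) count includes Usp2, which passed the filter only through E18.5, so that its call supports nothing. Furin, a protease that cleaves and activates the channel, rose from 193 to 372 (mean signals, log2 change 0.85, limma adjusted p = 0.0386) in (+/+) and by 0.73 (adjusted p = 0.0227) in (-/-) lungs. Prss8, another channel-activating protease, fell from 416 to 166 (-1.37, adjusted p = 0.0126) in (+/+) and by 1.02 on the log2 scale (adjusted p = 0.0433) in (-/-) lungs. Usp2, a deubiquitinating enzyme that acts on the channel, read 66.1 ± 6.83 at E18.5 and 35.6 ± 10.1 at term in (-/-) lungs, against a filter level of 51 (log2 change -0.68).

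Among the chloride channels and anion carriers, 1 of 11 rose in (+/+) lungs, where 10.7% of all rose. In (-/-) lungs 3 of 12 rose and 1 fell, where 13.8% of all rose and 13.1% fell. These counts include Clca3a1 in both genotypes and Clcn3 in (-/-) lungs. Both passed the filter only through term there, so that their calls support nothing. Clca3a1, of a family tied to calcium-activated chloride conductance, had mean signals below the filter at E18.5, 30.7 in (+/+) and 39 in (-/-) lungs, and read 113 and 98 at term (log2 changes 1.52 and 1.05). Clcn3, also below the filter by its E18.5 median in (-/-) lungs, changed by 1.11 there and by 0.67 in (+/+) lungs. Clic4, a chloride intracellular channel protein, rose by 0.96 (limma adjusted p = 0.0213) in (-/-) lungs, and its change in (+/+) lungs was 0.78 (adjusted p = 0.128). Clic3, of the same family as Clic4, fell by 1.19 on the log2 scale (limma adjusted p = 0.0311) in (-/-) lungs, and its change in (+/+) lungs was -1.16 (adjusted p = 0.0578).

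The 1 other aquaporin that was tested, Aqp8, read 73.7 at E18.5 and 24.4 at term in (+/+) lungs (mean signals, log2 change -1.13) and 71.8 and 31.6 in (-/-) lungs (-0.86), with both term values below the filter. Of the further sodium transporters, 0 of 7 passed in (+/+) lungs. Fxyd3, a regulator of the sodium pump, read 87.6 ± 16 at E18.5 and 49.2 ± 15 at term there (log2 change -0.68, limma adjusted p = 0.0768), and it passed the filter only through E18.5. In the same lungs Atp1b3, another beta subunit of the sodium pump, read 829.7 ± 158 at E18.5 and 1267 ± 276 at term (log2 change 0.60, limma adjusted p = 0.14). In (-/-) lungs 1 of 7 fell, Slc9a3r2 (-0.62, adjusted p = 0.048). Of the potassium channels, 0 of 3 passed in (+/+) and 1 of 4 in (-/-) lungs, Kcnn4, a calcium-activated potassium channel at 79.5 at E18.5 and, below the filter, 36.5 at term (log2 change -0.88). Kcnn4 passed the filter only through E18.5, so that its call supports nothing. The differences between the genotypes in these changes passed in 0 of 31 genes.

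**Figure D4:**
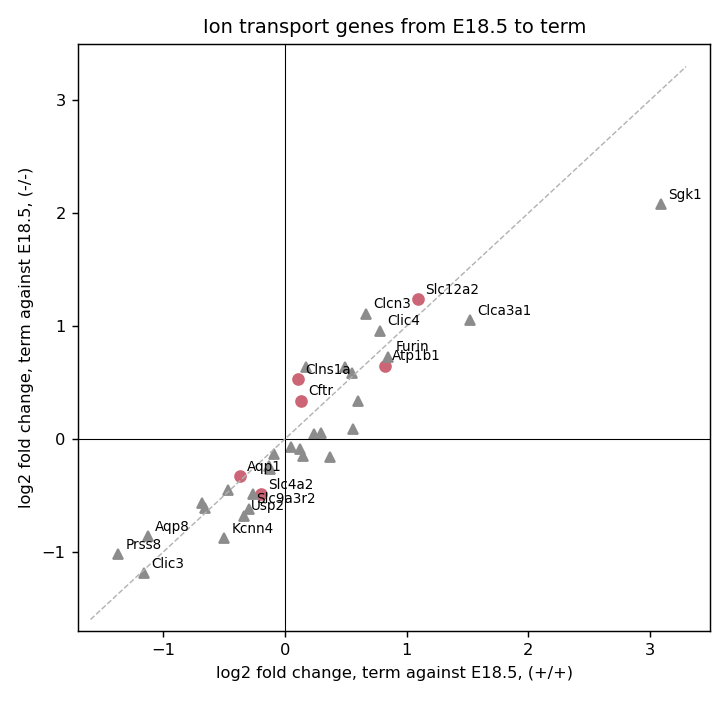
Log2 fold change from E18.5 to term in (-/-) lungs (vertical axis) against that in (+/+) lungs (horizontal axis) for 35 genes tested in both, with 6 members as red circles and 29 other transport genes as grey triangles; the dashed line marks equal changes. Slc12a2 and Atp1b1 lie in the upper right, with Sgk1 farthest out, at 3.09 and 2.08.

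Over all 16 arrays the genes whose log2 signals followed a member most closely were Rab18 (Pearson's r = 0.97), Gng12 (0.93) and Celf2 (0.92) for Slc12a2, and Zfand5 (0.93), Mfsd14a (0.91) and Lmo4 (0.91) for Atp1b1. For Aqp1 they were Ctsd (0.90), Tnfaip1 (0.89) and Hp (0.89), and for Slc4a2 Sars (0.88), Nsf (0.87) and Capg (0.87). For Cftr they were Vps29 (0.88), She (0.85) and Nfyb (0.85), and for Clns1a (_at) Adam3 (0.83), Scoc (0.80) and Zfp91 (0.80). These arrays share groups, times and RNA quality, and the coefficients are descriptions.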

How the data were processed

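RNA of 16 lungs, 1 per array, was hybridised to Affymetrix Murine Genome U74Av2 arrays. The authors made the deposited signal of each probe set with Microarray Suite 5.0 from its perfect match and mismatch probes, with a scaling factor per array. Groups came from the sample labels. Gene symbols came from the annotation of the platform, and probe sets with several symbols were left unnamed. The members and gene lists were chosen with earlier results of these data known. All annotated members were reported, and from each other list up to 4 genes of lowest unadjusted p.

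Signals were used as log2(signal + 16) without further scaling. Probe sets passing the filter (5825 to 6405 per comparison) were tested with limma 3.58.1 (R 4.3.3; functions lmFit and eBayes, with an intensity trend), 2-sided, with Benjamini-Hochberg adjustment, after a check on simulated data. Single probe sets were compared with a 2-sided exact permutation test. Correlations used 100000 permutations, and log2 ratios. Python 3.11.15 with scipy 1.17.1, numpy 2.4.6, pandas 2.3.3 and matplotlib 3.10.9 was used. Promoters were RefSeq sequences of GRCm38.p6. Alternatives were another normalization, pseudocount, filter, fit, array weighting and covariate, each array left out, and the methods' t-test. The number of arrays limits the precision. Detection p-values were not used.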

Additional observations from a re-analysis of the deposited data

Results flagged for a closer look

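In (+/+) lungs at E18.5, replicate I lay apart from the other 4 arrays in the 2 dim probe sets of Cftr. Its signal was 25.2 by the _s_at probe set, where the others read 0.9 to 4.7, and 6.9 by the _f_at probe set, where the others read 0.8 to 1.6. Both values were below the filter on low signals, and the array had the highest median signal of the 16, at 61. Of 22 groups of 5 arrays examined, these were the only 2 with such a gap, and chance gives about 1 in 20 groups.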

How the results depend on the processing

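No member passed an adjusted p of 0.05 between genotypes, or in the change of the genotype effect, under any alternative run. From E18.5 to term 2 probe sets, of Slc12a2 and Atp1b1, passed in each genotype. In (+/+) lungs the member count was 1 with quantile normalization, no filter or the GAPDH ratio as a covariate, and 0 with Xist or, added after the data were seen, the β-actin ratio as a covariate, or with the methods' t-test. Over all probe sets in (+/+) lungs, 1142 passed in the main fit, 182 with Xist, 369 with the β-actin ratio and 355 with the methods' t-test. In (-/-) lungs the member count was 1 with quantile normalization, no filter, the β-actin ratio or the methods' t-test, and 0 with Xist. Over all probe sets in (-/-) lungs, 1654 passed in the main fit and 1557 with quantile normalization. Leaving out 1 array gave a member count of 0 to 3 in (+/+) and 0 to 2 in (-/-) lungs: 0 without L or N, 1 without J, K, M or O and 3 without P in (+/+), and 0 without F and 1 without A, B, C, G or H in (-/-) lungs. At its unadjusted threshold the methods' t-test called 2 of 7 member probe sets at E18.5 and 0 of 7 at term between genotypes. Over time it called 2 of 7 in (+/+) and 3 of 6 in (-/-) lungs. The 2 at E18.5 were of Slc4a2 and of Clns1a (_s_at), which passed the filter only through the (+/+) group. The share of all probe sets at that threshold was not counted, so these counts say nothing particular about the members. Of 747 fold changes of single probe sets under an alternative, 61 changed sign, none of them of a called value. A call was lost in 31, all of them of the rises of Slc12a2 and Atp1b1. In (+/+) lungs Atp1b1 lost its call in 12 of 21 alternatives and Slc12a2 in 5 of 21. In (-/-) lungs Atp1b1 lost it in 3 of 21 and Slc12a2 in 11 of 21. A call was gained in 3: Aqp1 in (+/+) lungs without P, and Slc4a2 in (-/-) lungs with array weights (-0.60) or without H. Centring arrays on their median turned 650 higher and 492 lower probe sets over time in (+/+) lungs into 679 and 229, with the median change moving from -0.04 to 0.10, and 851 and 803 in (-/-) lungs into 1034 and 517. The cause of these shifts was not tested. No paired analysis was possible because the replicate letters are not shared between groups. Dim signals near background limited 4 member probe sets.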
